A study of Mus musculus with 12 samples.

Results

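The genes described here encode laminins, nidogens and integrins, the proteins that build the basement membrane and the receptors by which cells hold on to it. They were taken as every probe set annotated to a single gene whose symbol is Lama, Lamb, Lamc, Nid, Itga or Itgb followed by a number, which gave 74 of the 45101 probe sets on the array and 33 of the 18194 genes. By role there were 5 laminin α chains, 3 laminin β chains, 2 laminin γ chains (Lamc1 and Lamc3), 2 nidogens, 11 integrin α chains and 9 integrin β chains. The remaining gene, Itgb3bp, meets the rule by its symbol alone, since it encodes a nuclear protein of the kinetochore and not an integrin chain, and without it 69 probe sets of 32 genes are left. Integrin α chains named by a letter, such as Itgav, fall outside the rule.

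The data are 12 Affymetrix expression arrays of mouse RNA, 2 for each of 6 groups. Otic vesicles, the epithelial sacs that give rise to the inner ear, were dissected from mouse embryos labelled Dlx5-null at E10.5, wild type at E10.5, labelled Dlx5-null at E10 (embryonic day 10) and wild type at E10; Dlx5 encodes a homeodomain transcription factor. Each vesicle array holds a pool of 4 to 8 vesicles that had been treated with dispase to free them of mesenchyme, and the labels name neither the strain nor the null allele. The other groups were 2B1 cells, an otic vesicle cell line whose cells were transfected either with Dlx5 and a GFP vector or with the empty GFP vector alone. All of them were grown at 32 °C and then spent 4 days at 37 °C without gamma-interferon, and the arrays came from independent cultures.

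A laminin is a trimer of an α, a β and a γ chain that polymerises into a sheet under an epithelium, and nidogens link that sheet to the collagen IV network. Integrins are pairs of an α and a β chain that bind matrix outside the cell and the actin or keratin cytoskeleton inside it. Itgb1 pairs with many α chains, among them the laminin-binding Itga3, Itga6 and Itga7 and the fibronectin-binding Itga5, while Itgb4 pairs with Itga6 in hemidesmosomes. Itgb3 pairs with Itgav or Itga2b, and Itgb6 is an epithelial chain that pairs with Itgav and is known for activating latent TGF-β. The otic vesicle is surrounded by a basement membrane, and the neuroblasts that leave it cross that layer.

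Upstream sequences of Lamb2, Itgb6 and Lamb3, the members with the smallest p for the label at E10.5, are shown first, because Dlx5 and other homeodomain proteins recognise the core TAATT. They are the 250 bases before an annotated start, from RefSeq (GRCm38.p6), written 5′ to 3′ on the strand of the gene, with TAATT or its reverse complement AATTA in capitals.
Lamb2, chr9:108479612-108479861, plus strand: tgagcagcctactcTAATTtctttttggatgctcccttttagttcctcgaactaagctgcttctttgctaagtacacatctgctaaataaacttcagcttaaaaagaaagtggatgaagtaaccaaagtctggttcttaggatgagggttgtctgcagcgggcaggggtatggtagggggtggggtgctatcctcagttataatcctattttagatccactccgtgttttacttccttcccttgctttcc
Itgb6, first start, chr2:60722604-60722853, minus strand: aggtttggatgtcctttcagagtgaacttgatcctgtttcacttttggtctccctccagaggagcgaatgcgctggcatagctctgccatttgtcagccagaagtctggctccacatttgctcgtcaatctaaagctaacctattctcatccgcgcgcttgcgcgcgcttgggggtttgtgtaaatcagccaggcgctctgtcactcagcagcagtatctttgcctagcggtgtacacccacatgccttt
Itgb6, second start, chr2:60673694-60673943, minus strand: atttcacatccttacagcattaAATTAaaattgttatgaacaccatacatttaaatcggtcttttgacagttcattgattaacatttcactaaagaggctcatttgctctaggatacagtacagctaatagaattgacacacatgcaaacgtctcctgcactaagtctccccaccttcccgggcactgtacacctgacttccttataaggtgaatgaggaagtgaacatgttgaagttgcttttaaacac
Lamb3, first start, chr1:193301744-193301993, plus strand: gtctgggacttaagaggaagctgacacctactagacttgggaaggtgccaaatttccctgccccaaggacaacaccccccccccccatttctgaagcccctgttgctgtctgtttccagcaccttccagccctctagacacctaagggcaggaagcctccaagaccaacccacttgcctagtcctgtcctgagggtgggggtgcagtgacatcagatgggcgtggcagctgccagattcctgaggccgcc
The window of Lamb2 held 1 match, starting 236 bases upstream, and the window of the second Itgb6 start held 1 match, starting 228 bases upstream. The windows of the first Itgb6 start and of the first Lamb3 start held none. A second Lamb3 start, whose window is not printed, also had 0 matches. Over both strands, TAATT was found in 5 of the 25 windows that RefSeq gave for 22 of the member genes (Itga10, Itgb6, Lama2, Lamb1 and Lamb2), or 20%, against 25.03% of all 32851 windows of that length. The TATA box core TATAAA was in 0 of the 25 windows against 12.37% of all, and the GC box GGGCGG was in 9, or 36%, against 32.74%. These matches are descriptions of the letters and were not tested as binding sites. Itgb3 was not among the genes with a window.

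All values are log2 expression values as the authors deposited them, so that a difference of 1 is a factor of 2, and values of different probe sets are not set against each other because each probe set has its own brightness. The vesicle and the 2B1 arrays are on separate scales. One probe set stood for each gene, the one with the highest mean over the arrays compared, and the 25% of genes with the lowest means were not tested. In vesicles 29 of the 33 members were tested, and Itga1, Itga10, Itgb2 and Itgb8 had means of 3.90, 4.33, 3.81 and 4.09, under the limit of 5.19. In 2B1 cells 28 were tested, and Itga8, Itgb6, Itgb8, Lama1 and Lama4 fell under the limit of 4.85. Itgb4 lay exactly at that limit and was tested, but its mean was 4.725 without the empty vector arrays, where it was higher. Differences are given with the standard error (SE) of limma's fit and its p after Benjamini-Hochberg adjustment over all tested genes, with a call at an adjusted p under 0.05. Lower amounts of RNA per cell and fewer cells of a type cannot be told apart in such samples.

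Some facts of the arrays bear on what follows. The Dlx5 probe set was higher in the vesicles labelled null, at 7.97 and 7.97 at E10.5 and 7.27 and 8.02 at E10, than in the wild type, at 6.12 and 6.11 at E10.5 and 6.20 and 6.30 at E10, and where its probes lie relative to the null allele is not given in the sources used here. The genotype is therefore written as labelled. Both replicate 1 arrays of E10 stood apart, with a narrower spread of values over all probe sets (SD 2.33 in labelled null and 2.32 in wild type, against 2.38 to 2.47 on the other vesicle arrays) and low Xist (4.98 and 5.07 against 8.91 to 9.72). The Y-linked Eif2s3y had 4.82 and 5.04 in labelled null and 3.21 and 3.45 in wild type at E10.5. At E10 it had 6.50 and 6.17 in labelled null and 7.04 and 3.96 in wild type. The part of embryo sex in the differences below was not tested. Of 10 otic epithelium markers 8 were measured, and the mean of their values per array was 8.75 to 8.94 in labelled null and 9.15 on both arrays of wild type at E10.5, and 8.59 to 8.97 in labelled null and 8.70 to 9.18 in wild type at E10. In 2B1 cells 7 of these 8 were tested, with list means of 6.38 to 6.41 with Dlx5 and 6.23 to 6.32 with empty vector (5 higher with Dlx5, 2 lower, median 0.12, none past the threshold), and Pax8, a transcription factor of the otic placode, was too dim to test.

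Over the 8 vesicle arrays the tested members spanned from 0.35 log2 units between the lowest and the highest array for Lama2, the α chain of muscle basement membranes, to 1.85 for Itgb3. The widest ranges after Itgb3 were those of Itgb4 (1.75), Itgb6 (1.38), Lamb3 (1.24), Itga4 (1.19) and Nid1 (1.06). The narrowest after Lama2 were those of Lamc1 (0.36), the γ chain of most laminins, and Itgb5 (0.42). Lamc1 stood at 9.49 and 9.60 in labelled null and 9.80 and 9.81 in wild type at E10.5, and 9.62 and 9.75 in labelled null and 9.55 and 9.85 in wild type at E10. These ranges hold for the sets that stood for the genes. On the same arrays the other Lamc1 set ran from 5.31 to 6.22 and another Itgb5 set from 5.11 to 6.39.

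**Figure D1:**
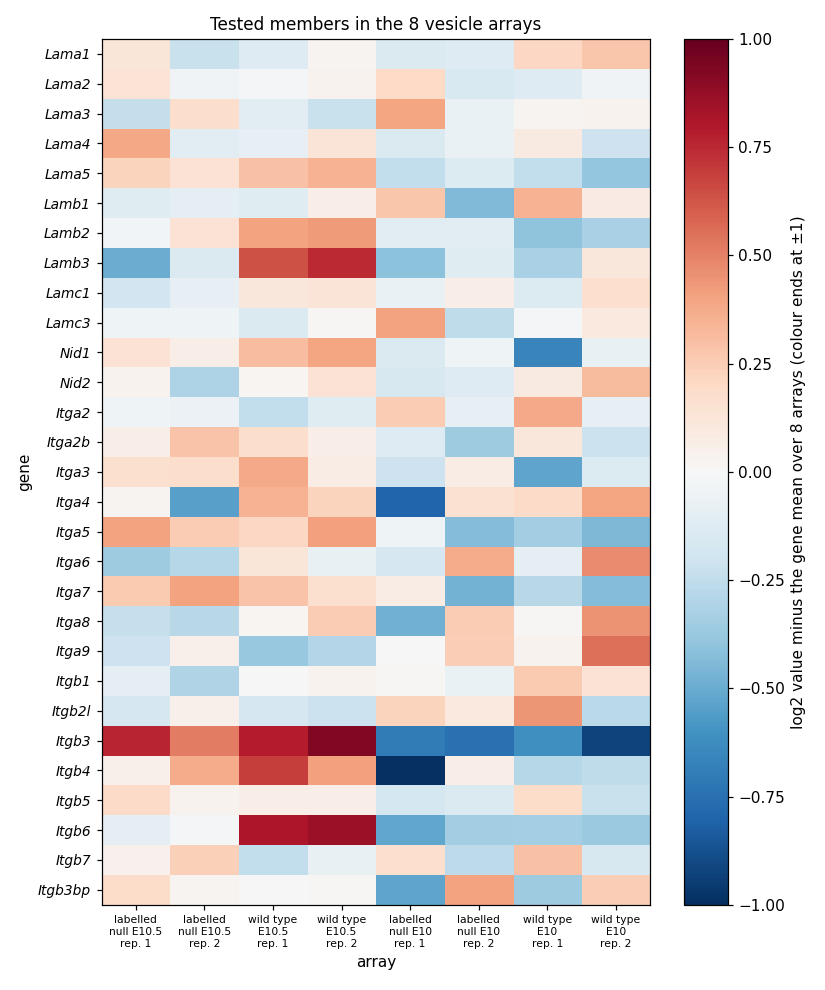
Tested members (rows, grouped as laminins, nidogens, integrin α and β chains and Itgb3bp) in the 8 vesicle arrays (columns); colour gives the log2 value minus the mean of that gene over the 8 arrays, ending at plus or minus 1. Itgb3 is above its mean in all 4 E10.5 arrays and below it in all 4 E10 arrays, while Itgb6 and Lamb3 are furthest above their means in the wild-type E10.5 arrays.

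The stage comparison in wild type asks how these genes changed between E10 and E10.5. Of the 29 tested members, 3 rose at E10.5 (Itgb3, Itgb6 and Lamb2) and 0 fell, whereas 1.17% of all 13645 tested genes rose and 0.997% fell. At an unadjusted p under 0.05 there were 10 members up and 1 down, where the shares over all genes were 15.1% and 7.43%. Itgb6 is counted among those up in each case, although only the wild-type E10.5 arrays carried it past the filter. The median difference of the members was 0.08, with 16 higher and 13 lower, and that of all genes was 0.06. By role, 1 of 3 laminin β chains and 2 of 7 integrin β chains rose, and none of the 5 laminin α chains, 2 laminin γ chains, 2 nidogens or 9 integrin α chains tested did.

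Lamb2, a laminin β chain found in many basement membranes, stood at 9.48 and 9.50 in wild-type vesicles at E10.5, against 8.67 and 8.75 at E10. The stages did not overlap, a separation not counted over all genes for any member in this paragraph. The rise was 0.78 (SE 0.14, limma adjusted p = 0.0491). Lamb3, the β chain of the anchoring laminin of epithelia, stood at 6.52 and 6.63 at E10.5, against 5.56 and 6.0 at E10, a difference of 0.80 whose adjusted p of 0.104 in limma missed the threshold. Lama5, the α chain of most epithelial basement membranes, had 8.97 and 9.02 at E10.5, against 8.43 and 8.29 at E10. Its stages did not overlap either, but the difference of 0.64 had an adjusted p of 0.0724 in limma. Nid1 differed by 0.72 (limma adjusted p = 0.116), with 6.89 and 6.98 at E10.5, against 5.92 and 6.51 at E10. Lama1, the early embryonic α chain, had 6.70 and 6.85 at E10.5, against 7.03 and 7.10 at E10, a difference of -0.29 that did not pass.

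Itgb3 showed the largest stage difference of the tested members. It had 7.69 and 7.83 in wild-type vesicles at E10.5, against 6.29 and 5.98 at E10, a rise of 1.62 (SE 0.17, limma adjusted p = 0.0261). The other Itgb3 probe set did not show this, with 5.14 and 5.41 at E10.5 and 5.40 and 5.33 at E10, a difference of -0.09. Itgb6 had 6.13 and 6.18 at E10.5, against 4.98 and 4.95 at E10, a rise of 1.19 (SE 0.14, limma adjusted p = 0.0288). Its E10 values lie under the limit of 5.19 for testing, and its mean over the vesicle arrays was 5.32 with and 5.04 without the wild-type E10.5 arrays, so those arrays carried it past the filter. Its presence among the members tested and counted in the vesicle comparisons therefore rests on the group in which it is high. The other Itgb6 probe set stayed between 4.25 and 4.81 in all vesicle arrays and was too dim to test.

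The partners of these β chains gave the following values. Itgav, which pairs with both, had 6.92 and 6.93 in wild type at E10.5, against 5.64 and 6.0 at E10, and its difference of 1.10 (SE 0.24) had a limma adjusted p of 0.0652. Itga2b, the platelet partner of Itgb3, had 7.49 and 7.38 at E10.5, against 7.43 and 7.10 at E10. Its difference of 0.17 lay within the spread of the E10 arrays. Itga5, the fibronectin receptor chain, had 6.40 and 6.60 at E10.5, against 5.84 and 5.74 at E10, a difference of 0.71 that did not pass (limma adjusted p = 0.0932).

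None of the 13 members on the lower side at E10.5 passed. Itga9, a receptor chain for tenascin, had 6.45 and 6.53 at E10.5, against 6.86 and 7.38 at E10, a difference of -0.63 (limma adjusted p = 0.152). Itga2, a collagen receptor chain, had 5.42 and 5.55, against 6.05 and 5.59 at E10, and differed by -0.34. Itgb1, the most widely shared β chain, had 7.76 and 7.79, against 8.02 and 7.90 at E10, and differed by -0.19. Itgb2l, a relative of the leukocyte chain Itgb2, had 5.60 and 5.55, against 6.21 and 5.50 at E10, so its stages overlapped. Among the others, Itgb4 differed by 0.82, Itga7 by 0.58, Itga3 by 0.56 and Itga6 by -0.17 (limma adjusted p of 0.214, 0.166, 0.168 and 0.704).

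**Figure D2:**
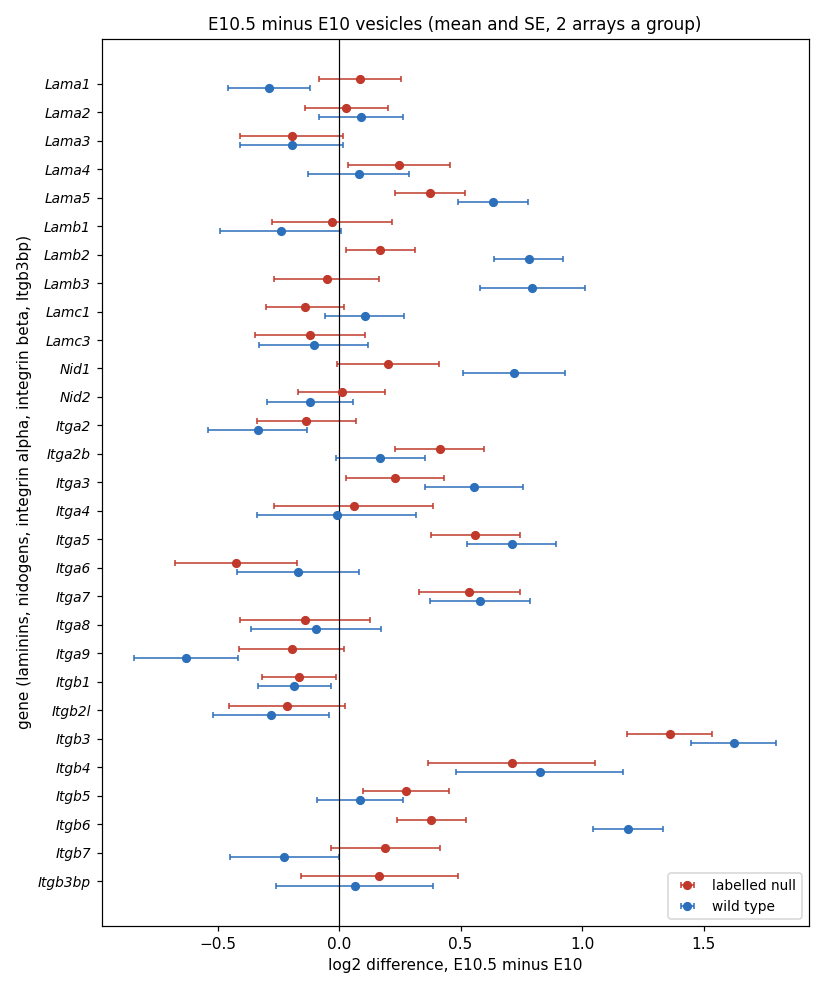
Log2 difference of E10.5 minus E10 (horizontal axis) for each tested member (vertical axis), in labelled null (red) and wild-type vesicles (blue); points are differences of means of 2 arrays a group and bars are the SE of the fit. Itgb3 stands at 1.36 in labelled null and 1.62 in wild type, and Itgb6 at 0.38 and 1.19.

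The 3 calls in wild type rested on a spread pooled over the 4 vesicle groups. None was made without replicate 1 of wild-type E10, without either wild-type E10.5 array or without either labelled-null E10.5 array, nor when only the 4 arrays compared were fitted (limma adjusted p of Itgb3 0.0850), and 7 were made without both E10 replicate 1 arrays, where Lama5, Itga5, Itga7 and Itga9 joined and where 1672 of all 13645 genes passed, against 296 with all arrays. Lamb2 alone was also lost without the filter on dim genes (limma adjusted p = 0.0559), with every probe set tested singly (0.0515) and with arrays scaled to a common mean and SD (0.0563). Where a fit left a group with 1 array, that array was assumed to vary like those of the other groups.

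Markers of other cell types moved with stage as well. In wild type, 3 of 10 tested endothelial markers rose at E10.5 (Pecam1, Tie1 and Eng; all 10 higher, median 0.55), and the mean of the list per array was 6.73 to 6.76 at E10.5, against 6.07 to 6.11 at E10. Of 12 mesenchyme markers 3 rose (Col1a1, Lum and Dcn; 8 higher, median 0.50), and their mean was 7.12 to 7.27 at E10.5, against 6.36 to 6.88 at E10. Of 8 otic neuron markers 3 rose (Isl1, Tubb3 and Stmn2), with a median of 0.85. Of the 6 tested megakaryocyte and platelet markers 0 passed, with 2 higher and 4 lower (median -0.12). The largest of their differences was 1.425, and the smallest limma adjusted p of that list was 0.0976. Of 8 erythroid markers 0 passed although 7 were higher (median 1.17). None of 9 leukocyte and 4 neural crest or glia markers passed, and of 8 otic epithelium markers 1 fell (Pax8, by 1.30). The part of these cells in the rise of Itgb3, Itgb6 and Lamb2 was not tested.

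Among other genes of the pathway, 1 of 22 tested partners in the basement membrane rose in wild type. This was Tinagl1, a matrix protein that binds laminin and integrins, with 7.92 and 7.94 at E10.5, against 6.35 and 6.43 at E10 (1.54, SE 0.20, limma adjusted p = 0.0312). Of 25 adaptors and kinases of integrin adhesion 1 rose, the kinase Src, with 8.10 and 8.16 at E10.5, against 7.31 and 7.25 at E10 (0.85, SE 0.14, limma adjusted p = 0.0406). None of 8 other integrin ligands and none of 9 other laminin receptors passed. The medians of these lists were 0.41 for the partners, 0.38 for the adaptors, 0.28 for the ligands and 0.14 for the receptors.

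In vesicles labelled null none of the 29 members passed the stage comparison, where 0.022% of all genes, or 3, did. At an unadjusted p under 0.05 there were 5 members up and 0 down, against 7.48% and 7.81% of all genes, and the median difference was 0.09 with 0.05 over all genes. Itgb3 had 7.67 and 7.42 at E10.5, against 6.21 and 6.16 at E10, so the stages did not overlap, a separation not counted over all genes. Its difference of 1.36 (SE 0.17) had a limma adjusted p of 0.0730, which ranged from 0.0440 (without either wild-type E10 array) to 0.545 (without labelled-null E10.5 replicate 2) as single arrays were left out, and was 0.0319 without both E10 replicate 1 arrays and 0.206 with only the 4 arrays compared. Itgb6 had 5.23 and 5.30 at E10.5, against 4.80 and 4.97 at E10, a difference of 0.38 (limma adjusted p = 0.281). Of the marker genes, 1 erythroid marker (Hemgn) passed in labelled null, with all 8 tested erythroid markers higher (median 2.41). Of 6 megakaryocyte and platelet markers 5 were higher (median 0.09, highest 2.535). Of 10 endothelial markers 9 were higher (median 0.52), of 12 mesenchyme markers 10 (median 0.58) and of 8 otic neuron markers 6 (median 1.045). Of 8 otic epithelium markers 4 were higher and 4 lower (median -0.06). The part of these cells in the Itgb3 difference was not tested.

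Further members with the smallest p in labelled null were also integrin chains or Lama5. Itga5 had 6.59 and 6.44 at E10.5, against 6.15 and 5.76 at E10 (0.56, limma adjusted p = 0.231). Itga7, a laminin receptor chain of muscle, had 5.72 and 5.86, against 5.53 and 4.98 at E10 (0.54, limma adjusted p = 0.290). Lama5 had 8.90 and 8.82, against 8.43 and 8.54 at E10 (0.38, limma adjusted p = 0.288). None of these stage groups overlapped, a separation not counted over all genes. On the lower side, Itga6 had 9.20 and 9.27 at E10.5, against 9.39 and 9.93 at E10 (-0.42), and Itgb1, Lama3, Itga9 and Itgb2l differed by -0.16, -0.19, -0.19 and -0.21, all with a limma adjusted p of 0.470 or more. Probe sets of a gene differed in size here. Nid1 had differences of 0.20 for the set that stood for the gene and 0.98 for the next set. The other tested sets of Itgb3, Itga5 and Lama5 differed by 0.115, 0.035 and 0.06, against 1.36, 0.56 and 0.38 for the sets used. Of the 14 members with more than 1 tested probe set, all sets had the same sign in 11.

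The comparison of labelled null with wild type asks which of these genes depend on the Dlx5 genotype. Over both stages, with stage in the fit, 0 of the 29 members passed, where 0.022% of all genes did. At an unadjusted p under 0.05 there were 0 members up and 4 down (Lamb3, Itgb6, Itga4 and Nid2), against 1.27% and 2.84% of all genes. Itgb6 is counted there although only the wild-type E10.5 arrays carried it past the filter. The median difference of the members was -0.05, with 13 higher and 16 lower, and that of all genes was -0.01. None of these 4 differences had a limma adjusted p under 0.996.

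Lamb3 had 5.39 and 5.74 in labelled null and 6.52 and 6.63 in wild type at E10.5, and 5.47 and 5.76 in labelled null and 5.56 and 6.0 in wild type at E10. The groups were separate at E10.5, which was not counted over all genes, and overlapped at E10. The difference over both stages was -0.59 (SE 0.20, limma adjusted p = 0.996). Itga4, a chain of fibronectin and Vcam1 receptors, had 6.71 and 6.14 in labelled null and 7.03 and 6.91 in wild type at E10.5, and 5.89 and 6.84 in labelled null and 6.88 and 7.08 in wild type at E10. All 4 labelled-null arrays lay below all 4 wild-type arrays, a separation not counted over all genes, and the closest values were 6.84 and 6.88. The difference was -0.58 (SE 0.21, limma adjusted p = 0.999), but the next brightest Itga4 set differed by -0.06. Nid2 had 6.52 and 6.17 in labelled null and 6.50 and 6.63 in wild type at E10.5, and 6.32 and 6.35 in labelled null and 6.57 and 6.80 in wild type at E10, a difference of -0.28 (SE 0.12). Itgb1 differed by -0.22, and by -0.305 in its other tested set. Lamb1 differed by -0.19, and by -0.3775 and 0.0475 in its other tested sets, none of them past the threshold. The members furthest on the higher side were Lama3, Itga7, Itga3, Itga5 and Lama2, at 0.13, 0.13, 0.10, 0.09 and 0.08.

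Itga6 gave different pictures by probe set. The set that stood for the gene had 9.20 and 9.27 in labelled null and 9.68 and 9.48 in wild type at E10.5, and 9.39 and 9.93 in labelled null and 9.47 and 10.03 in wild type at E10, a difference of -0.22 over both stages. The other Itga6 set had 7.10 and 6.86 in labelled null and 7.61 and 7.59 in wild type at E10.5, and 7.45 and 7.19 in labelled null and 8.26 and 8.06 in wild type at E10. All 4 labelled-null arrays of that set lay below all 4 wild-type arrays, a separation not counted over all probe sets. Tested among all probe sets, that set differed by -0.73 (SE 0.12, limma adjusted p = 0.193). This set and the second Itga5 set (-0.63, limma adjusted p = 0.797), where the set that stood for Itga5 differed by 0.09, were singled out after their values were seen. Of the 14 members with more than 1 tested probe set, all sets had the same sign in 9.

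**Figure D3:**
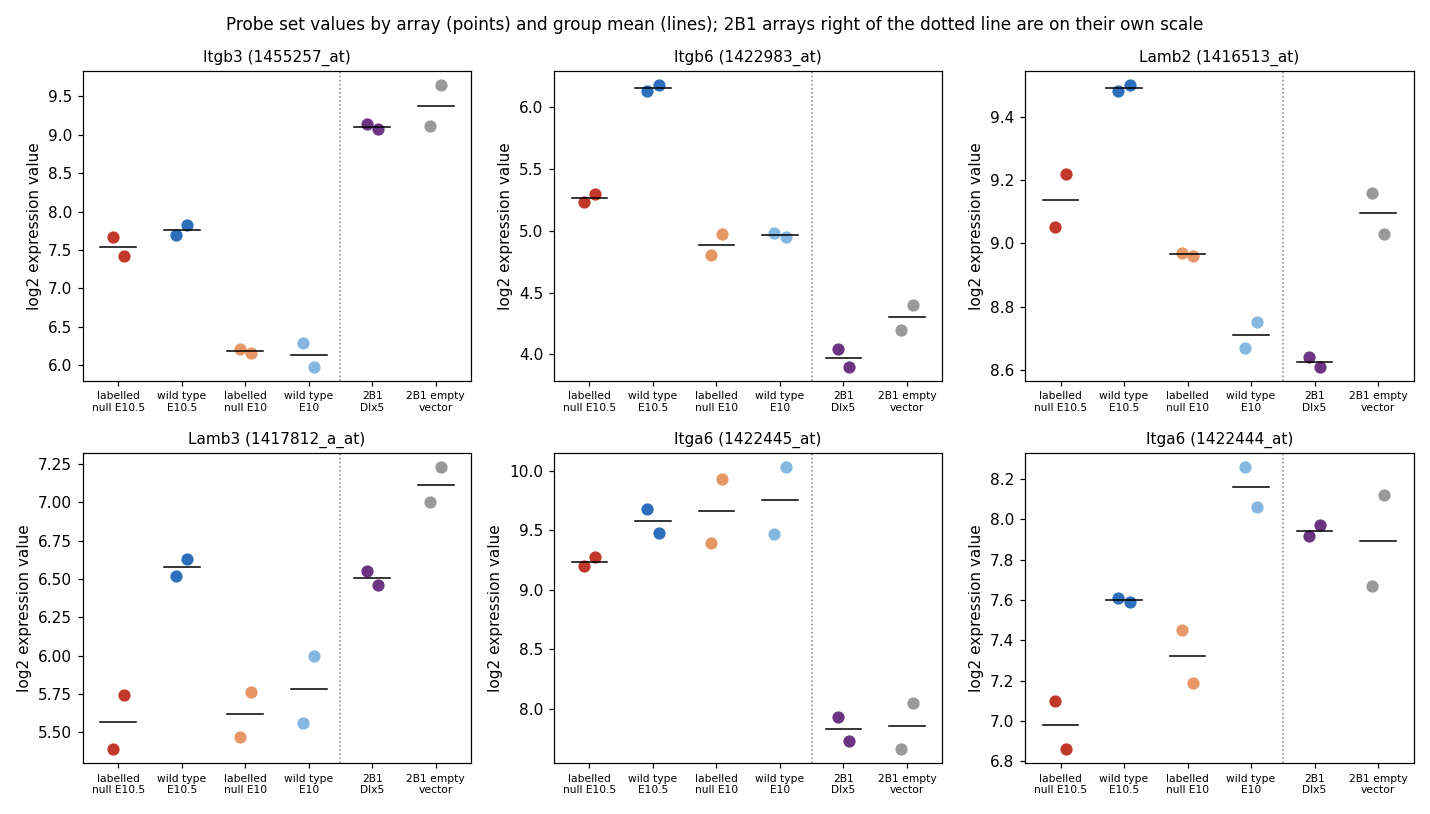
Log2 values (vertical axes, each with its own range that does not start at 0) by group for the probe sets of Itgb3, Itgb6, Lamb2 and Lamb3 that stood for the gene and both sets of Itga6; points are arrays, lines are means of 2 arrays, and the 2B1 arrays right of the dotted line are on their own scale. Lamb3 and Itgb6 are highest in wild-type E10.5 vesicles, and the second Itga6 set, last panel, is lower in labelled null at both stages.

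At E10.5 alone, 0 of 29 members passed, where 0.00733% of all genes, a single gene, did. There were 0 members up and 3 down at an unadjusted p under 0.05 (Itgb6, Lamb3 and Lamb2), where the shares over all genes were 0.777% and 2.18%, and Itgb6 is counted although only these wild-type arrays carried it past the filter. Itgb6 had 5.23 and 5.30 in labelled null, against 6.13 and 6.18 in wild type, a difference of -0.89 (SE 0.14, limma adjusted p = 0.376). Lamb3 had 5.39 and 5.74 in labelled null, against 6.52 and 6.63 in wild type, a difference of -1.01 (SE 0.22, limma adjusted p = 0.713). Lamb2 had 9.05 and 9.22, against 9.48 and 9.50 in wild type, a difference of -0.35 (SE 0.14). These 3 were picked by p, and in each both labelled-null arrays lay below both wild-type arrays, a separation not counted over all genes. These are the same wild-type E10.5 arrays that entered the stage comparison, so the 2 comparisons are not independent.

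Itga4 and Lamc1 followed at E10.5 with -0.55 and -0.26, and Itgav differed by -0.61, with 6.53 and 6.10 in labelled null and 6.92 and 6.93 in wild type. On the higher side stood Itgb7, a lymphocyte homing chain, at 0.30, Itga9 at 0.26, Itga2 and Lama3 at 0.14 and Lama4 at 0.12, all with a limma adjusted p of 1.00. Marker lists of these and other cells gave the following values at this stage. The 8 tested erythroid markers were all higher in labelled null (median 1.00), and the mean of the list was 10.00 to 10.03 in labelled null and 8.92 to 8.96 in wild type. Of 12 mesenchyme markers 10 were lower (median -0.27; list means of 6.82 to 7.01 in labelled null and 7.12 to 7.27 in wild type), of 10 endothelial markers all 10 were lower (median -0.18) and of 8 otic epithelium markers 6 were lower (median -0.32). Of 8 otic neuron markers 5 were higher (median 0.38; list means of 8.57 to 8.68 in labelled null and 8.24 to 8.30 in wild type), and all 6 megakaryocyte and platelet markers were higher (median 0.15; list means of 7.04 to 7.14 in labelled null and 6.83 in both wild-type arrays). The medians of 9 leukocyte and 4 neural crest or glia markers were 0.09 and 0.19. None of these markers passed the threshold, and their part in the differences of Itgb6, Lamb3 and Lamb2 was not tested.

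At E10 alone, 0 of 29 members passed, as did 0% of all genes, and 0 members reached an unadjusted p under 0.05 in limma, where 3.31% of all genes did. The largest difference was that of Itga4, at -0.61, with 5.89 and 6.84 in labelled null, against 6.88 and 7.08 in wild type. The smallest p was that of Lama1, with 6.68 and 6.70 in labelled null, against 7.03 and 7.10 in wild type. Its difference was -0.38 and its groups did not overlap, a separation not counted over all genes. Nid2, Itga8 and Itgb1 differed by -0.35, -0.34 and -0.23. On the higher side Nid1, Itga3, Lamb2, Itga5 and Lama5 differed by 0.28, 0.26, 0.26, 0.17 and 0.12, and Lamb2 had 8.97 and 8.96 in labelled null, against 8.67 and 8.75 in wild type.

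**Figure D4:**
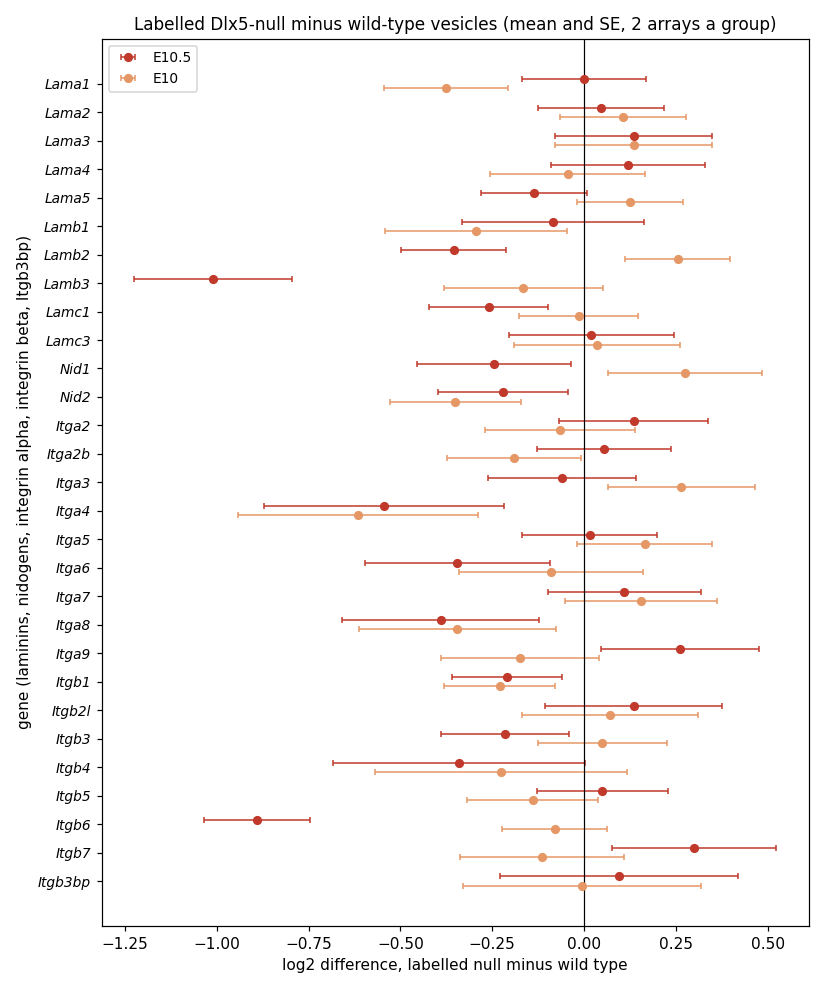
Log2 difference of labelled null minus wild type (horizontal axis) for each tested member (vertical axis) at E10.5 (red) and E10 (orange); points are differences of means of 2 arrays a group and bars are the SE of the fit. Lamb3 (-1.01) and Itgb6 (-0.89) stand furthest left at E10.5 and lie at -0.17 and -0.08 at E10.

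Whether the label acted differently at the 2 stages was tested with their interaction, the label difference at E10.5 minus that at E10. Again 0 of 29 members passed, as did 0% of all genes. At an unadjusted p under 0.05 in limma there were 0 members up and 3 down, against 0.55% and 1.42% of all genes. These were Lamb3 (-0.84, SE 0.31), Itgb6 (-0.81, SE 0.20) and Lamb2 (-0.61, SE 0.20), each with a limma adjusted p of 1.00. In Lamb2 both labelled-null arrays were lower than both wild-type arrays at E10.5 and higher at E10, separations not counted over all genes. Itgb6 is counted although only the wild-type E10.5 arrays carried it past the filter, and the same arrays entered the stage and E10.5 comparisons. The members furthest on the positive side were Itga9, Itgb7 and Lama1, at 0.44, 0.42 and 0.38. For Nid1 the probe sets had opposite signs (-0.52 and 0.30).

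In 2B1 cells the comparison asks what added Dlx5 did to these genes in an otic cell line. The Dlx5 probe set had 5.14 and 4.80 with Dlx5, against 4.66 and 4.79 with empty vector. Whether it detects the transfected Dlx5 was not tested. Of the 28 tested members 0 passed, as did 0% of all 13647 genes. At an unadjusted p under 0.05 there were 4 members up (Nid2, Itga2b, Lamb1 and Itgb3bp) and 3 down (Lamb3, Lamb2 and Itgb2l), against 9.71% and 3.19% of all genes. The median difference was 0.01, with 16 higher and 12 lower, and that of all genes was 0.05. Itgb4 is counted among the lower, although only the empty vector arrays carried it to the limit for testing.

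The laminin β chains went different ways in 2B1 cells, with none past the threshold. Values were apart in each case, a separation not counted over all genes. Lamb3 had 6.55 and 6.46 with Dlx5, against 7.0 and 7.23 with empty vector (-0.61, SE 0.17, limma adjusted p = 0.377). Lamb2 had 8.64 and 8.61 with Dlx5, against 9.16 and 9.03 with empty vector (-0.47, SE 0.16, limma adjusted p = 0.377). Lamb1, the β chain of most embryonic laminins, had 7.61 and 7.82 with Dlx5, against 6.99 and 7.4 with empty vector (0.52, SE 0.19, limma adjusted p = 0.382). The other tested Lamb1 sets differed by 0.385 and 0.045.

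Nid2, a nidogen, had 5.78 and 5.62 with Dlx5, against 4.65 and 5.36 with empty vector (0.70, SE 0.24, limma adjusted p = 0.377). Itga2b had 7.22 and 7.30 with Dlx5, against 6.51 and 6.94 with empty vector (0.54), Itgb3bp had 7.11 and 7.15, against 6.56 and 6.75 (0.48), and Itgb2, the leukocyte β chain, had 5.70 and 5.99, against 4.82 and 5.67 (0.60). In each of these 4 genes, and in Lamb1, the empty vector replicate 1 array was the lowest. That array also had the narrowest spread of values over all probe sets, with an SD of 2.19 against 2.29 to 2.31 on the other 2B1 arrays. Without empty vector replicate 2, which leaves empty vector replicate 1 alone in its group and takes the spread from the Dlx5 arrays, 1742 of all 13647 genes passed, among them Nid2, Itga2b and Itgb3bp (limma adjusted p = 0.0497 for each), and no member passed without any of the other 3 arrays.

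Further members on the lower side were Itgb2l, with 5.52 and 5.49 with Dlx5, against 5.98 and 5.83 with empty vector (-0.40), Itgb7 (-0.34) and Itga2 (-0.30). Itgb3 had 9.14 and 9.07 with Dlx5, against 9.11 and 9.65 with empty vector, and its groups overlapped. Itgav had 10.24 and 10.26 with Dlx5, against 10.16 and 10.42 with empty vector, and also overlapped. Itga6 differed by 0.05, Itgb1 by 0.10 and Lama5 by 0.01. Itgb6 was too dim to test, with 4.04 and 3.90 with Dlx5 and 4.20 and 4.40 with empty vector.

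**Figure D5:**
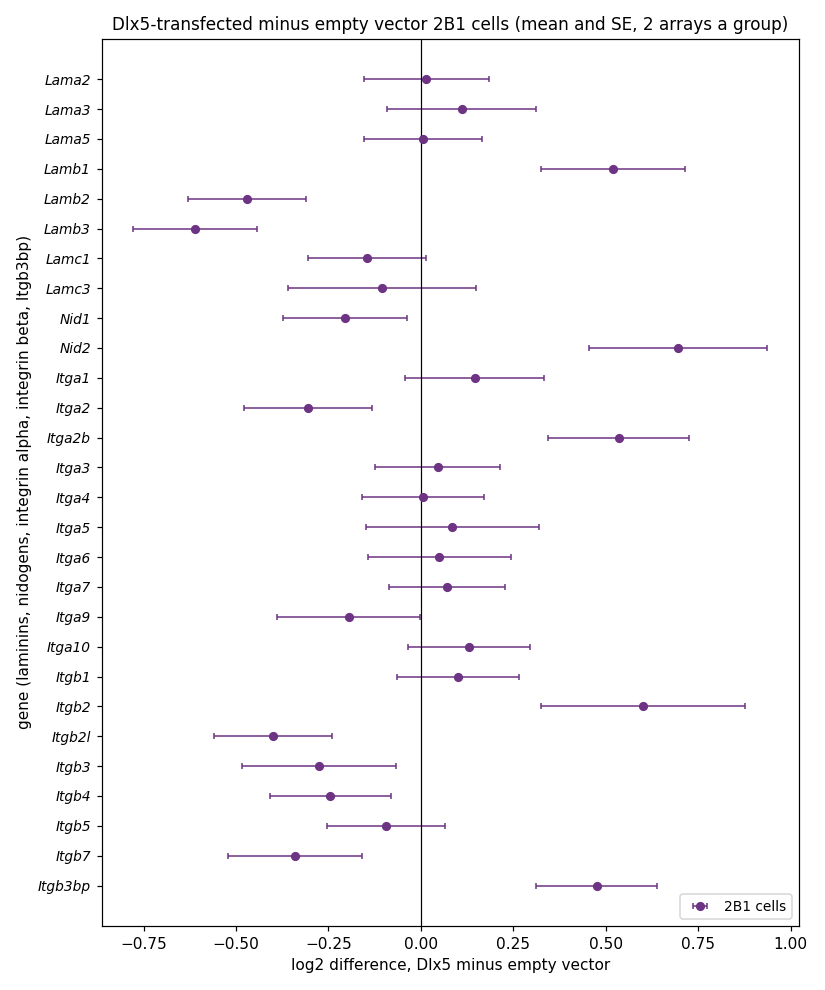
Log2 difference of Dlx5-transfected minus empty vector 2B1 cells (horizontal axis) for each tested member (vertical axis); points are differences of means of 2 arrays a group and bars are the SE of the fit. Nid2 (0.70) stands furthest right and Lamb3 (-0.61) furthest left.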

How the data were processed

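The deposited table holds log2 values of 45101 probe sets made by the authors with RMA and Affymetrix Expression Console, per the submitters' processing notes, which state no versions. RMA compresses differences of dim sets. Vesicle arrays had means of 6.10 to 6.11 and 2B1 arrays of 5.76 to 5.82, so the sets appear to have been normalized apart and no level was set across them.

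The analysis used the 34958 probe sets annotated to 1 gene and left out 932 with several genes and 9211 without any. Their symbols were updated through the RefSeq gene table of GRCm38.p6 (34754 by gene identifier, 1 by accession, 203 kept as listed). After the lowest 25% of genes were left out, 13645 remained in vesicles and 13647 in 2B1 cells. Limma 3.58.1 in R 4.3.3 (lmFit, eBayes) tested label with stage as covariate (5 residual degrees of freedom), the E10, E10.5, stage and interaction contrasts from 4 group means (4) and transfection in 2B1 cells (2). The number of arrays limits the precision. The fits were tested on simulated data.

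Members, lists and the naming rule were chosen with earlier results of these data known. The rule named every member past the threshold, then members by unadjusted p up to 5 per direction (3 for the interaction), and of the pathway lists those past the threshold and Itgav. Groups and replicate numbers came from the sample titles. Same-numbered arrays did not deviate together in every pair (correlations of -0.374 to 0.707), so the numbers were not taken as pairs. The 0.707 was that of labelled null and wild type at E10, where both replicate 1 arrays stood apart. Scanner files and scan dates were not used here.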

Additional observations from a re-analysis of the deposited data

How the results depend on the processing

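No member passed any label or interaction comparison, for all 29 tested members, under any alternative: every probe set tested singly, no filter on dim genes, an intensity trend in eBayes, arrays scaled to a common mean and SD, the replicate number as a block, a single array left out, both E10 replicate 1 arrays left out and, at E10 and E10.5, only the 4 arrays compared. The count of 3 for stage in wild type ranged from 0 to 4 as single arrays were left out, was 0 with only the 4 arrays compared and 7 without both E10 replicate 1 arrays. It was 2 with the replicate block, without the filter and with scaled arrays, each time without Lamb2, whose limma adjusted p was 0.0673 with the block. The count of 0 for stage in labelled null ranged from 0 to 1 as single arrays were left out, and was 1 (Itgb3) with the intensity trend and without both E10 replicate 1 arrays. In 2B1 cells it ranged from 0 to 3. Counts over all genes moved further: 296 for stage in wild type ranged from 0 to 1672, 3 for stage in labelled null from 0 to 311, 3 for label over both stages from 0 to 19, 1 at E10.5 from 0 to 37 and 0 in 2B1 cells from 0 to 1742. With numbers crossed between groups, 0 members passed for stage in labelled null and 0 in 2B1 cells, as with the block. For label at E10, the block took the members at an unadjusted limma p under 0.05 from 0 to 3. All genes at that p went from 451 to 1641 of 13645.

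Of the named members' values, 10 changed sign, in 14 runs of an alternative, none of them past the threshold. As single arrays were left out, the label difference over both stages ranged from -0.008 to 0.195 for Itga3, from -0.003 to 0.153 for Itga5 and from -0.001 to 0.139 for Lama2 (-0.010 without both E10 replicate 1 arrays). At E10 it ranged from -0.02 to 0.57 for Nid1, from -0.03 to 0.36 for Itga5 and from -0.71 to 0.02 for Itga8, and at E10.5 from -0.07 to 0.34 for Lama3 and from -0.125 to 0.365 for Lama4. The stage difference ranged from -0.635 to 0.075 for Itgb2l in wild type and from -0.425 to 0.035 for Lama3 in labelled null, with the same 0.075 and 0.035 without both E10 replicate 1 arrays. The cause was not tested. With 2 arrays a group and no scanner files used here, signal over background is unknown, and a difference that missed the threshold is not shown to be absent.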
